A study of Arabidopsis thaliana with 9 samples.

Results

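BIP1 (AT5G28540) and ATERDJ3B (AT3G62600) are Arabidopsis thaliana genes of chaperones of the endoplasmic reticulum (ER), and their transcripts were followed in roots on the ground and in flight. They were taken as the probe sets paired with exactly 1 gene where that gene was BIP1 or ATERDJ3B. This gave 1 probe set for each gene, so 2 of the 16542 genes that had such a probe set. Probe sets with exactly 1 gene numbered 16722 in a table of 38408. RNA of whole roots was hybridised to 9 AraGene 1.0 ST arrays, on which several probes along a transcript are summarised to a single log2 value. The last-actuated, first-actuated and ground control groups held 3 arrays each.

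All 3 groups were 10-day-old seedlings of the Wassilewskija (WS) background that carried pCaMV35S:14-3-3κ:GFP, a 14-3-3 kappa protein fused to GFP under the constitutive pCaMV35S promoter, grown under 24 h light and fixed in RNAlater. Last-actuated roots came from a tube triggered aboard a jet after a climb at 4 g of roughly 30 s and about 10 s of microgravity. First-actuated roots came from a tube triggered in the same flight during the acceleration at low altitude. Ground control roots came from a tube held by a person and triggered on the ground while the plane flew. The design text gives about 1.5 min of level flight before the in-flight fixation without separating the tubes. For the first tube this conflicts with the treatment protocol, whose timing is followed here. Plants without the transgene were not analysed here.

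BiP proteins are the HSP70 chaperones of the ER lumen. They bind unfolded stretches of proteins entering the secretory pathway and release them in a cycle driven by ATP. J-domain proteins deliver clients to HSP70 proteins and speed up ATP hydrolysis, and ERdj3B is a J protein of the ER lumen that works with SDF2 and BiP. When unfolded proteins accumulate, the unfolded protein response raises transcripts of ER chaperones through the sensor IRE1 with its target bZIP60, and through the membrane-bound factors bZIP28 and bZIP17. BIP2 encodes a protein nearly identical to BIP1. Probe sequences were not used here, so signal from BIP2 transcripts in the BIP1 probe set could not be told apart.

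Array medians over all probe sets were 3.27 to 3.35, and pairs of arrays correlated at 0.98 to 0.9895. Each group came from a single tube, so tube and condition cannot be told apart and the p-values reflect only how far root pools from 1 tube varied. In whole roots, fewer cells of a type and less RNA per cell cannot be told apart.

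The BIP1 probe set had log2 values of 3.56, 3.23 and 3.30 in last-actuated roots. It had 3.26, 2.96 and 3.15 in first-actuated roots and 2.88, 2.63 and 2.45 in ground control roots. All 3 ground arrays lay below all 6 in-flight arrays, and the in-flight groups overlapped. Of all tested probe sets, 16.6% had no overlap between ground and last-actuated arrays and 20.4% none between ground and first-actuated arrays. Group means were 3.36 ± 0.17 in last-actuated, 3.12 ± 0.15 in first-actuated and 2.65 ± 0.21 in ground control roots (SD, n = 3 each). The probe set was dim. It stood above 49.2% to 52.6% of all probe sets on the last-actuated arrays, 44.9% to 49.0% on the first-actuated and 32.8% to 43.5% on the ground arrays. Last-actuated replicates 1 and 3 were above the median of their own array, by 0.23 and 0.03, and the other 7 arrays were below it.

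The ATERDJ3B probe set had log2 values of 8.39, 8.11 and 8.42 in last-actuated roots. It had 7.16, 7.56 and 7.49 in first-actuated roots and 7.46, 7.71 and 7.69 in ground control roots. The last-actuated arrays were above all others, while the other 2 groups overlapped. Of all tested probe sets, 16.6% had no overlap between last-actuated and ground arrays and 21.8% none between the in-flight groups. Means were 8.31 ± 0.17 in last-actuated, 7.40 ± 0.22 in first-actuated and 7.62 ± 0.14 in ground control roots (SD, n = 3 each). The probe set was well within the bright part of the arrays, above 91.1% to 92.8% of all probe sets in last-actuated roots, 85.5% to 88.2% in first-actuated and 87.4% to 88.9% in ground control roots. Probes differ in how strongly they bind, so the levels of the 2 genes were not set against each other. The residual SD within groups was 0.18 for each gene, where the median over named probe sets was 0.15.

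**Figure D1:**
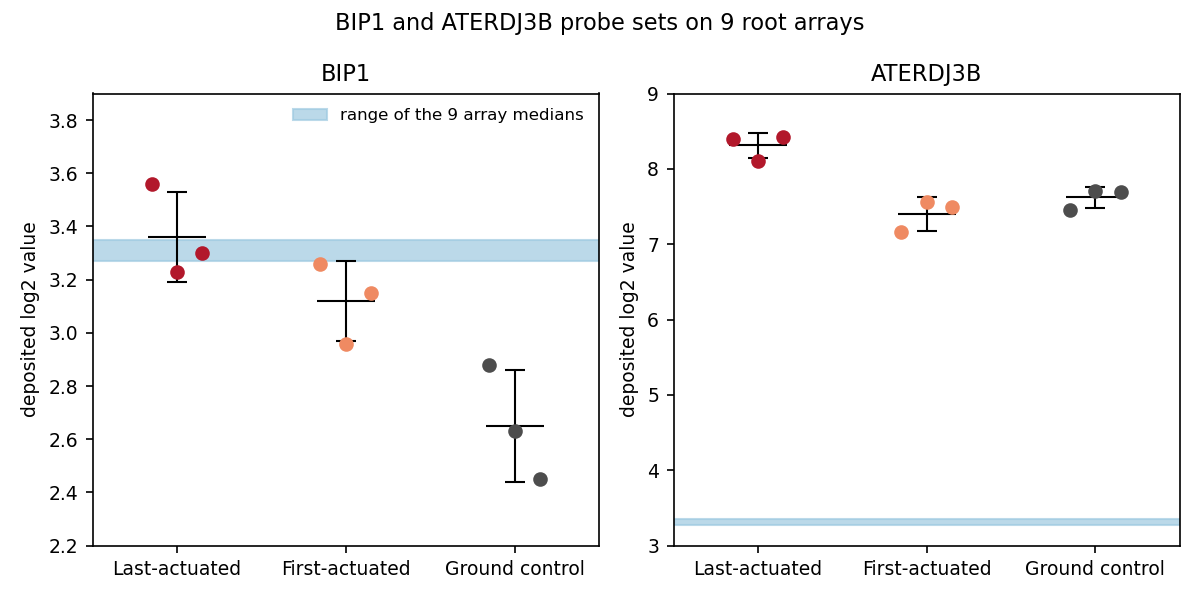
Deposited log2 values (y axis) of the BIP1 and ATERDJ3B probe sets on each array, by group (x axis), with the mean and SD of 3 arrays as bars and the range of the 9 array medians (3.27 to 3.35) as a band. BIP1 was near or below the medians and lowest in ground roots (2.45 to 2.88), and ATERDJ3B was highest in last-actuated roots (8.11 to 8.42).

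Last-actuated roots were set against ground roots to ask how transcripts stood after the climb and the parabola. Both genes rose. BIP1 rose 1.64-fold with a 95% interval of 1.33 to 2.02, a log2 change of 0.71 ± 0.13 (SE) (limma adjusted p = 0.0270). ATERDJ3B rose 1.61-fold with an interval of 1.31 to 1.98, a log2 change of 0.68 ± 0.13 (limma adjusted p = 0.0314). All 3 last-actuated arrays were above all 3 ground arrays for each gene, with a gap of 0.36 for BIP1 and 0.39 for ATERDJ3B between the closest arrays. Among the 17481 probe sets tested, 1.81% were called, 0.927% higher and 0.881% lower, and 16.6% had groups that did not overlap. The increases ranked 117 for BIP1 and 140 for ATERDJ3B, where the median change of all tested probe sets was 0.00.

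Calls were rare among dim probe sets in that comparison. Of 8501 tested probe sets with a mean below 3.30, the median over all probe sets, 22 (0.259%) were called, of which 5 were higher. BIP1, at a mean of 3.05, was among those 5. Of the 8980 brighter ones, 294 (3.27%) were called. Signal over background was not known, so the size of the BIP1 change is uncertain.

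Both calls in last-actuated roots were close to the threshold and ended when single arrays were left out. For BIP1 the limma adjusted p was 0.0901 without ground control replicate 2, 0.0931 without ground control replicate 3 and 0.0517 without first-actuated replicate 3. It was 0.0937, 0.0600 and 0.0785 without last-actuated replicates 1, 2 and 3. For ATERDJ3B it was 0.117, 0.0699 and 0.0750 without ground control replicates 1, 2 and 3, and 0.0537 without first-actuated replicate 3. It was 0.108 and 0.135 without last-actuated replicates 1 and 3. The changes themselves stayed between 0.61 and 0.82 for BIP1 and between 0.60 and 0.79 for ATERDJ3B. With all 38408 probe sets tested, the limma adjusted p was 0.0625 for BIP1 and 0.0722 for ATERDJ3B. With only the compared groups fitted it was 0.0670 for BIP1.

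First-actuated roots were set against the same ground arrays to ask how transcripts stood early in the flight, by the protocol's timing, so the ground values enter both comparisons. Neither gene was called. BIP1 differed by 0.47 ± 0.13 on the log2 scale, 1.39-fold with a 95% interval of 1.13 to 1.71 (limma adjusted p = 0.0790, unadjusted p = 0.00558). Its groups did not overlap, as in 20.4% of tested probe sets, and the closest arrays were 0.09 apart. ATERDJ3B differed by -0.22 ± 0.13, 0.858-fold with an interval of 0.698 to 1.06 (limma adjusted p = 0.437), and its groups overlapped. Of all tested probe sets 4.89% were called, 2.25% higher and 2.64% lower. The intervals leave room for a 1.71-fold increase of BIP1 and for a decrease of ATERDJ3B to 0.698 of its ground level.

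Last-actuated roots were then set against first-actuated roots, the pair that the labels' protocol separates by the stage of flight. ATERDJ3B was higher in last-actuated roots by 0.90 ± 0.13 on the log2 scale, 1.87-fold with a 95% interval of 1.52 to 2.30 (limma adjusted p = 0.00306). The groups did not overlap, which was so for 21.8% of tested probe sets, and the closest arrays were 0.55 apart. This increase ranked 154 among the 17481 tested, of which 6.73% were called. As shares of all tested probe sets, 3.58% were called higher and 3.15% lower. It was called without any 1 of the 9 arrays, at 0.78 to 1.01. BIP1 differed by 0.24 ± 0.13, 1.18-fold with an interval of 0.958 to 1.45 (limma adjusted p = 0.389), and its groups overlapped.

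Over the 3 groups together, limma's moderated F test passed for ATERDJ3B (adjusted p = 0.00526) and for BIP1 (adjusted p = 0.0219), as it did for 7.65% of tested probe sets. For BIP1 it no longer passed without ground control replicate 2 (0.0719), ground control replicate 3 (0.0755), last-actuated replicate 1 (0.0580) or last-actuated replicate 3 (0.0534), given as adjusted p.

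The order of the group means differed between the genes. For BIP1 it ran from last-actuated through first-actuated to ground control, where the in-flight neighbours did not differ beyond their spread. For ATERDJ3B it ran from last-actuated through ground control to first-actuated, where ground and first-actuated roots did not differ beyond their spread. The change of ATERDJ3B minus that of BIP1 was -0.03 for last-actuated against ground roots (exact permutation test, two-sided p = 1). It was -0.69 for first-actuated against ground roots (exact p = 0.2) and 0.67 for last-actuated against first-actuated roots (exact p = 0.1). With 3 arrays against 3, 0.1 is the smallest p this test can give. Across the 9 arrays, which share the group structure, the log2 values of the 2 genes had Pearson r = 0.43 and Spearman rho = 0.37. After the group means were removed r was -0.38.

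**Figure D2:**
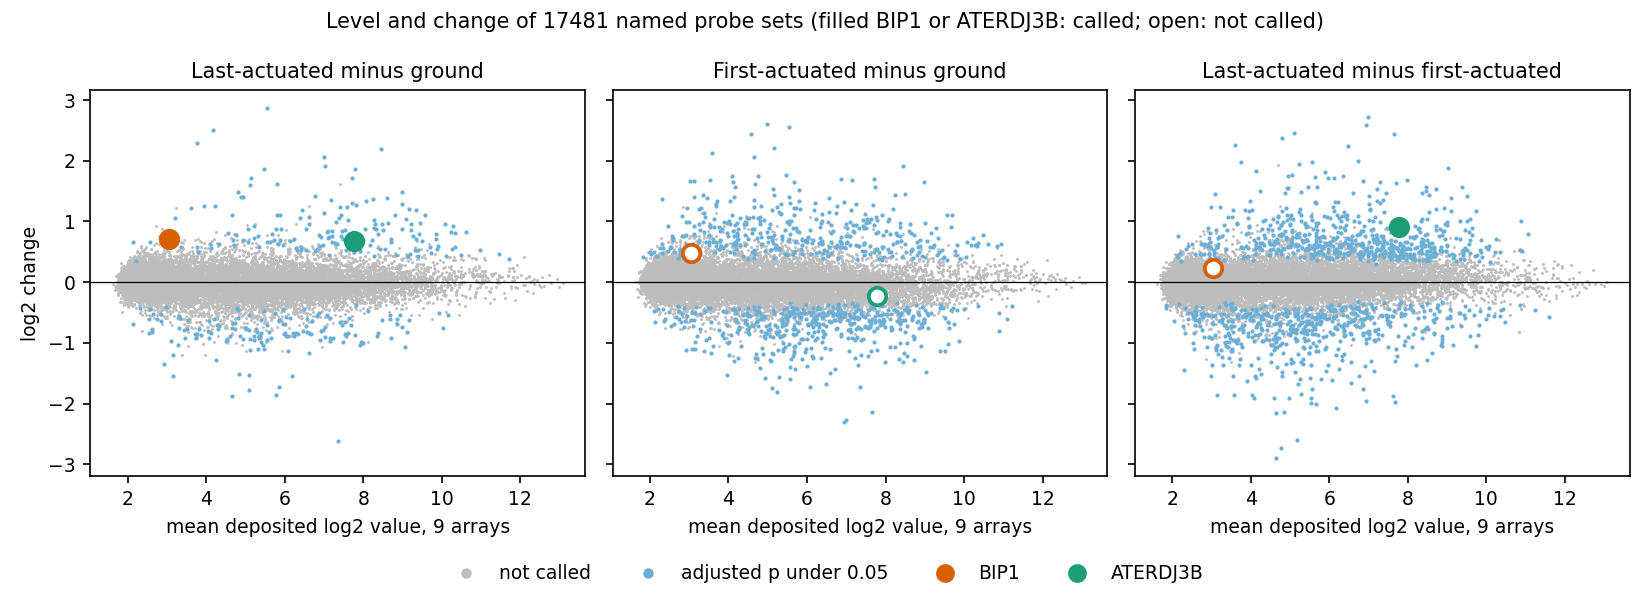
Log2 change (y axis) against mean log2 value over 9 arrays (x axis) for 17481 named probe sets in each comparison, with called probe sets in blue and BIP1 and ATERDJ3B as large symbols, filled where called. For last-actuated against ground roots BIP1, in the dim range, and ATERDJ3B lay high (0.71 and 0.68), with increases ranked 117 and 140. ATERDJ3B alone of the pair was called between the in-flight groups (0.90).

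Other genes of ER folding and quality control were taken from lists of 67 loci, of which 21 had a probe set with exactly 1 gene. In last-actuated against ground roots 3 of the 21 were called higher and 0 lower, where 0.927% of all tested probe sets were called higher and 0.881% lower. The median change was 0.11 against 0.00 over all tested probe sets. Of the 21, 2 were dim, and calls were more frequent among brighter probe sets. Of the 8980 brighter tested probe sets, 157 were called higher in this comparison. In first-actuated against ground roots 0 were called by limma in either direction, where 4.89% of all tested probe sets were called. An unadjusted p under 0.05 was found for 5, beside 9 in last-actuated against ground roots and 10 between the in-flight groups. The share of all tested probe sets under that limit is not given here, so nothing is drawn from those counts. The median change in first-actuated against ground roots was -0.09 against 0.01. Between last-actuated and first-actuated roots 4 were called higher and 0 lower, where 3.58% of all tested probe sets were called higher and 3.15% lower. The median was 0.19 against 0.00. Of the 8980 brighter tested probe sets, 584 were called higher there. Of the 21, 12 carried a gene symbol in the tables used, and 2 of the 12 rose in last-actuated against ground roots, beside the same 0.927% of all tested probe sets. None of the 12 was dim.

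Among the chaperones and their J protein partners, AT4G16660, a listed locus without a symbol in those tables, had log2 values of 8.24, 8.13 and 8.31 in last-actuated roots and 7.49, 7.80 and 7.81 in ground roots. It rose by 0.52 ± 0.11 (limma adjusted p = 0.0375), with no overlap between the groups, as in 16.6% of tested probe sets. ATERDJ2A, which encodes a membrane-bound J protein of the ER translocation machinery, differed by -0.07 ± 0.11 in last-actuated against ground roots and by 0.14 ± 0.11 in first-actuated against ground roots. Neither difference was called. BIP2, BIP3, ATERDJ3A, P58IPK and SDF2 were not analysed here.

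In the lectin cycle, which holds glycoproteins in the ER until they are folded, CRT1b, a calreticulin gene, differed by 0.11 ± 0.10 in last-actuated and by -0.17 ± 0.10 in first-actuated roots against ground. The disulfide isomerase family gene PDIL5-1 differed by 0.15 ± 0.13 in last-actuated and by -0.09 ± 0.13 in first-actuated roots against ground. Neither gene was called in any comparison. The other measured lectin cycle locus, AT5G07340, differed by 0.18 ± 0.14 in last-actuated and by 0.06 ± 0.14 in first-actuated roots against ground. It was not called in any comparison either. Only 2 of 6 listed lectin cycle loci and 1 of 15 listed disulfide loci were measured.

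Among the regulators of the unfolded protein response, BZIP17, a membrane-bound transcription factor gene, had log2 values of 7.50, 7.52 and 7.27 in last-actuated roots, 6.95, 6.99 and 7.02 in first-actuated roots and 7.05, 7.01 and 6.87 in ground roots. The last-actuated arrays were above all others. Over all tested probe sets, last-actuated arrays did not overlap ground arrays in 16.6% and first-actuated arrays in 21.8%. BZIP17 rose by 0.45 ± 0.10 in last-actuated against ground roots (limma adjusted p = 0.0473) and was higher by 0.45 ± 0.10 in last-actuated roots than in first-actuated ones (limma adjusted p = 0.0209). BZIP28, whose protein is cut and released from the membrane under ER stress, differed by 0.00 ± 0.09 in each comparison. BZIP60, the gene of the factor activated by IRE1 splicing, differed by 0.27 ± 0.18 in last-actuated and by 0.46 ± 0.18 in first-actuated roots against ground (limma adjusted p = 0.590 and 0.207). The protease gene S1P differed by -0.31 ± 0.17 in last-actuated and by -0.22 ± 0.17 in first-actuated roots against ground, and was not called. AT4G20310, listed as S2P, differed by -0.32 ± 0.12 in last-actuated and by -0.18 ± 0.12 in first-actuated roots against ground. Neither change of AT4G20310 was called (limma adjusted p = 0.294 and 0.494).

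Calls were also made among genes of ER-associated degradation, by which misfolded proteins leave the ER to be destroyed. DER1, a derlin gene, had log2 values of 10.64, 10.68 and 10.69 in last-actuated roots, 10.11, 10.17 and 10.24 in first-actuated roots and 9.85, 9.97 and 9.71 in ground roots. The 3 groups did not overlap. Of all tested probe sets, 16.6% had no overlap between last-actuated and ground arrays. The share was 20.4% for first-actuated and ground arrays and 21.8% for the in-flight groups. DER1 rose by 0.83 ± 0.09 in last-actuated against ground roots (limma adjusted p = 0.00118) and was higher by 0.49 ± 0.09 in last-actuated roots than in first-actuated ones (limma adjusted p = 0.00974). It differed by 0.33 ± 0.09 in first-actuated against ground roots (limma adjusted p = 0.0683).

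Also higher in last-actuated roots than in first-actuated ones were the derlin gene DER2.1, by 0.50 ± 0.09 (limma adjusted p = 0.0105), and OS9, a lectin gene of the degradation pathway, by 0.46 ± 0.11 (limma adjusted p = 0.0383). Neither was called against ground. DER2.2 differed by -0.28 ± 0.09 in last-actuated against ground roots (limma adjusted p = 0.220), and UBC32, a ubiquitin-conjugating enzyme gene, by -0.35 ± 0.12 in first-actuated against ground roots (limma adjusted p = 0.128). Of 6 measured loci of the translocon list, none with a symbol, 0 were called by limma in any comparison. Of all tested probe sets, 1.81% were called in last-actuated and 4.89% in first-actuated roots against ground, and 6.73% between the in-flight groups. With shares that low, and 2 of the 6 dim, the absence of calls says little about this list. Of those 6, 2 had an unadjusted p under 0.05 for last-actuated against ground, 1 for first-actuated against ground and 3 between the in-flight groups. The share of all tested probe sets under that limit is not given here, so nothing is drawn from these counts.

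With 1 array left out, the 3 increases in last-actuated against ground roots became 1 or 2. DER1 was called in all 9 such fits, BZIP17 in 1 and AT4G16660 in 0. The 4 increases between the in-flight groups became 2 to 4, not always of the same genes. DER1 and DER2.1 were called in all 9 fits, BZIP17 in 4 and OS9 in 1, and AT4G16660 and UBC32, not called with all arrays, in 1 each. The fits in which the 4 became 2 were those without first-actuated replicates 2 or 3 or last-actuated replicates 1 or 2. The fits in which the 3 became 1 were all but that without last-actuated replicate 3.

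**Figure D3:**
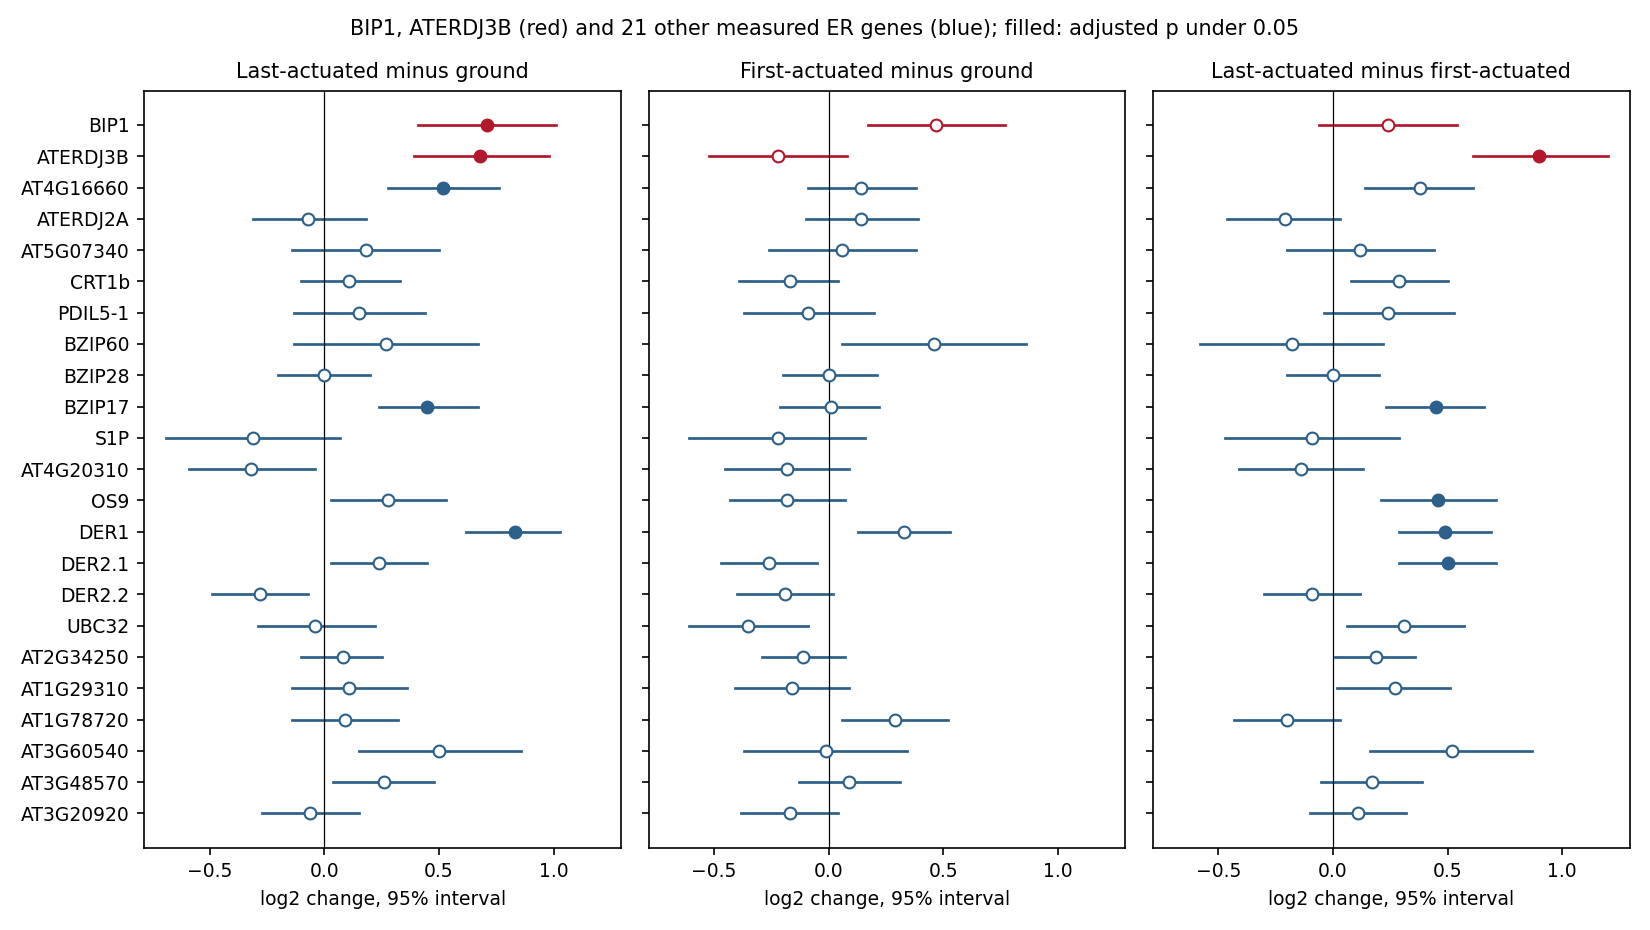
Log2 change (x axis) with its 95% interval for BIP1 and ATERDJ3B (red) and 21 other measured ER genes (blue), 1 gene per row, in the 3 comparisons, with filled symbols for limma adjusted p under 0.05. Besides BIP1 and ATERDJ3B, AT4G16660 (0.52), BZIP17 (0.45) and DER1 (0.83) were filled for last-actuated against ground roots, and no symbol was filled for first-actuated against ground roots.

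HSP70 and J protein genes of other compartments served as a contrast by location. Hsp70-2, a cytosolic HSP70 gene, rose by 0.74 ± 0.16 in first-actuated against ground roots (limma adjusted p = 0.0260) and differed by 0.14 ± 0.16 in last-actuated against ground roots (limma adjusted p = 0.791). Between last-actuated and first-actuated roots it differed by -0.60 ± 0.16 (limma adjusted p = 0.0502). AT3G09440, a listed locus without a symbol, differed by 0.04 ± 0.08 in last-actuated and by 0.06 ± 0.08 in first-actuated roots against ground. ATJ1, a J protein gene, differed by -0.04 ± 0.12 in each in-flight group against ground. Of 9 and 4 loci on these lists, 2 and 1 were measured.

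Of 15 root markers, 2 were measured. PYK10, a root beta-glucosidase gene of ER bodies, stood at 12.09 to 12.36 in last-actuated, 12.36 to 12.45 in first-actuated and 12.35 to 12.42 in ground roots. EXPA7, an expansin gene of root hairs, stood at 5.02 to 5.51 in last-actuated, 4.53 to 4.87 in first-actuated and 5.09 to 5.54 in ground roots. Of 12 shoot markers, 1 was measured, the light-harvesting gene LHB1B2, at 5.71 to 6.15 in last-actuated, 7.15 to 8.45 in first-actuated and 6.88 to 7.22 in ground roots. It was lower in last-actuated roots than in first-actuated ones by log2 -1.96 ± 0.28 (limma adjusted p = 0.00224), the comparison in which ATERDJ3B was higher. In last-actuated against ground roots, where BIP1 and ATERDJ3B were both called, LHB1B2 differed by -1.06 ± 0.28. In first-actuated against ground roots it differed by 0.90 ± 0.28. Neither was called (limma adjusted p = 0.102 and 0.0974). The part of shoot tissue in the BIP1 and ATERDJ3B results was not tested. None of 14 seed and flower genes was measured, so no level of genes unused by roots could be set beside the BIP1 values.

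Patterns over the 9 arrays were compared by Pearson r with the other probe sets of exactly 1 gene, and the 5 highest were taken for each gene as a description. With so many probe sets and 9 arrays in 3 groups, the highest r values were selected from 16720. These r values include the group differences. Calls among the selected loci therefore follow in part from the selection and add no support to the calls of BIP1 or ATERDJ3B. For BIP1 they were AT2G26680 (r = 0.967), AT1G72760 (0.959), AT5G57100 (0.953), AT1G13360 (0.952) and AT3G53830 (0.950). AT5G57100 averaged 9.70 in last-actuated, 9.30 in first-actuated and 8.49 in ground roots. It rose by 1.20 ± 0.11 in last-actuated and by 0.81 ± 0.11 in first-actuated roots against ground (limma adjusted p = 0.000371 and 0.00227). AT2G26680 averaged 5.94 in last-actuated, 5.67 in first-actuated and 5.28 in ground roots. Also called in last-actuated against ground roots were AT2G26680, AT1G72760 and AT3G53830 (limma adjusted p = 0.0117, 0.00746 and 0.0414). AT1G13360 differed by 0.50 ± 0.13 there and was not called (limma adjusted p = 0.108). Once group means were removed, r for the 5 was 0.74 to 0.86. ATERDJ3B ranked 2413 in likeness to BIP1.

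For ATERDJ3B the 5 were AT1G19380 (r = 0.958), AT5G42220 (0.956), POLD3 (0.952), AT2G44380 (0.947) and AT3G59110 (0.941). AT2G44380 averaged 6.00 in last-actuated, 4.25 in first-actuated and 4.60 in ground roots. It rose by 1.40 ± 0.15 in last-actuated against ground roots (limma adjusted p = 0.00109) and was higher by 1.75 ± 0.15 in last-actuated roots than in first-actuated ones (limma adjusted p = 0.000149). AT3G59110 averaged 6.33 in last-actuated, 5.47 in first-actuated and 5.70 in ground roots, and rose by 0.63 ± 0.12 against ground (limma adjusted p = 0.0296). AT1G19380 differed by 0.34 ± 0.13 in last-actuated against ground roots, AT5G42220 by 0.17 ± 0.08 and POLD3 by 0.34 ± 0.10. Those changes were not called (limma adjusted p = 0.289, 0.381 and 0.15). Between the in-flight groups AT1G19380 and POLD3 were called (limma adjusted p = 0.0213 and 0.0378) and AT5G42220 was not (0.12). As with the loci like BIP1, calls among these 5 follow in part from how they were selected. Within groups r for the 5 was 0.46 to 0.93. BIP1 ranked 3105 in likeness to ATERDJ3B, and no locus stood on both lists of 5.

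**Figure D4:**
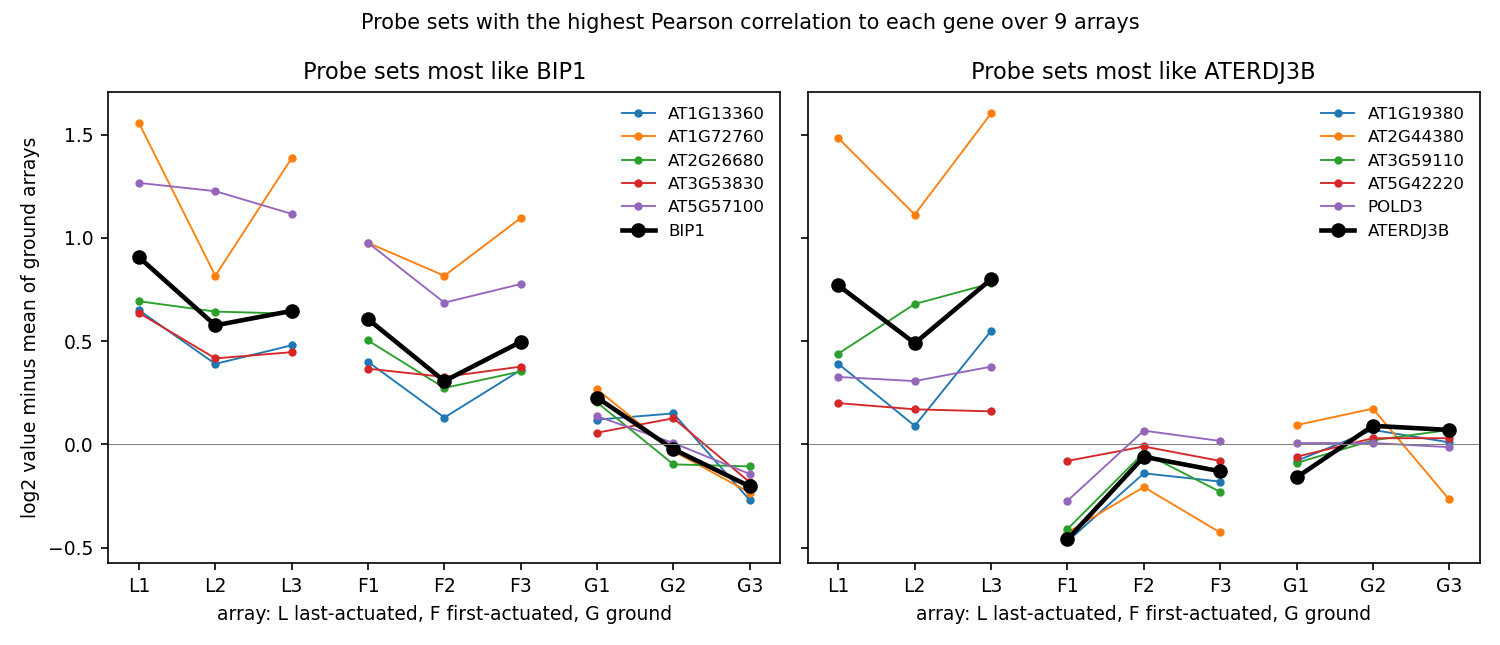
Log2 value minus the mean of the ground arrays (y axis) on each of the 9 arrays (x axis, numbered by replicate and grouped by condition) for BIP1 or ATERDJ3B (thick black) and the 5 probe sets of highest Pearson r to it. Points of the probe sets like BIP1 lay above 0 on all in-flight arrays, and those like ATERDJ3B lay above 0 on last-actuated arrays, with changes for AT5G57100 of 1.20 (last-actuated) and 0.81 (first-actuated) and for AT2G44380 of 1.40 and -0.35 against ground.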

How the data were processed

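RMA and oligo are named, with limma, R 4.0.0 and TAIR10, in the submitters' processing notes, and the values deposited by the authors are log2 values per probe set and array. RMA as usually run removes a change shared by most transcripts. Slides, scan dates and detection calls were not used here. Names came from the platform's annotation. Symbols were brought up to date through gene identifiers in a RefSeq table of TAIR10.1. Its coordinates were used to order protein-coding genes along a chromosome.

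Groups were compared with lmFit and eBayes (limma 3.58.1, R 4.3.3) on the 17481 probe sets with at least 1 gene and all 9 arrays, with no covariate. Called means a Benjamini-Hochberg adjusted p under 0.05 over all of them. The fit was first run on simulated data with known changes. The number of arrays limits the precision. Over all probe sets, same-numbered arrays shared no broad deviation from their group means. Their deviations correlated at -0.09 to 0.04, beside -0.07 to 0.06 for arrays of different numbers. This check cannot exclude a pairing that touches few probe sets, and a fit with a replicate block is given below.

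The genes, lists and tests were chosen with earlier results of these data known. Every measured gene of a list could be named, and likeness took the 5 highest Pearson r. Families were not drawn from gene descriptions, since the gene table used has none. Roles stated are background knowledge. No sequence of either gene was used here.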

Additional observations from a re-analysis of the deposited data

Results flagged for a closer look

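The change of ATERDJ3B against ground differed between the in-flight groups. Against ground it was 0.68 ± 0.13 (SE) in last-actuated roots and -0.22 ± 0.13 in first-actuated roots on the log2 scale. The difference between the 2 changes, which is the difference of last-actuated and first-actuated roots, was 0.90 ± 0.13 (limma adjusted p = 0.00306), with 3 of 3 last-actuated arrays above all first-actuated arrays. Those 2 groups did not overlap in 21.8% of tested probe sets. BIP1, at 0.71 ± 0.13 in last-actuated and 0.47 ± 0.13 in first-actuated roots, gave a difference of 0.24 ± 0.13 (limma adjusted p = 0.389).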

How the results depend on the processing

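The sign of every BIP1 and ATERDJ3B change held in all alternatives run, and the ATERDJ3B difference between the in-flight groups was called in all of them. With all probe sets tested, last-actuated against ground was not called for BIP1 (0.71, limma adjusted p = 0.0625) or ATERDJ3B (0.68, 0.0722), the BIP1 F statistic was 12.9 (0.0512), and 1794 probe sets were called between the in-flight groups, against 1177. With only the compared groups fitted, BIP1 in last-actuated against ground roots was not called (0.71, 0.0670), and 512 probe sets were called for first-actuated against ground, against 855. With the replicate block, ATERDJ3B in last-actuated against ground roots was not called (0.68, 0.0517), BIP1 in first-actuated against ground roots was (0.47, 0.0409), and no other call on the 2 genes changed. With the block, 247 probe sets were called for last-actuated against ground, 723 for first-actuated against ground and 1035 between the in-flight groups. Of the 21 other ER genes, the block left 1 called higher in last-actuated against ground roots, against 3, a check chosen after seeing the data. The causes were not tested. Without 1 array, BIP1 ran from 0.61 to 0.82 (last-actuated against ground), 0.37 to 0.59 (first-actuated against ground) and 0.14 to 0.31 (between in-flight groups), and its F from 9.4 to 18.8. ATERDJ3B ran from 0.60 to 0.79, -0.30 to -0.10 and 0.78 to 1.01, and its F from 15.8 to 27.4. Called probe sets ran from 179 to 333, 549 to 807 and 724 to 1119 in the same order, lowest without last-actuated replicate 2, ground control replicate 1 and last-actuated replicate 3. BIP1 has no value where dim probe sets were dropped.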

Other observations

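In the order of protein-coding genes of the RefSeq table, AT3G62590 comes just before ATERDJ3B and AT5G28550 just after BIP1. In last-actuated against ground roots AT3G62590 differed by -0.67 on the log2 scale (limma adjusted p = 0.0561) and AT5G28550 by -0.17 (limma adjusted p = 0.555). The neighbours on the other sides, MYB11 and FRS10, were not analysed here.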
